A study of Rattus norvegicus with 18 samples.

Results

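The middle of the subjective day (circadian time, CT, 6) was compared with the middle of the subjective night (CT 18) in the suprachiasmatic nucleus (SCN) of rats kept in constant darkness. The arrays were chosen by their time of sampling alone: those of 6 h and 30 h stood for CT 6 and those of 18 h and 42 h for CT 18. This gave 8 of the study's 18 arrays and 4 of its 8 RNA pools. All animals were adult male Long-Evans rats that had lived under 12 h of light and 12 h of darkness, passed into constant darkness at CT 12, and were taken every 6 h from CT 0 on. The CT 6 group thus consisted of a pool from the first day (6 h) and a pool from the second (30 h), and the CT 18 group of the pools of 18 h and 42 h. Each pool joined the RNA of 5 rats, extracted animal by animal, so the spread between single rats cannot be seen. Every one of these 4 pools was hybridised once in a first run and once in a technical repeat to the U34A GeneChip of Affymetrix, which reads 1 sample per array. The intensities were assumed to be linear. The immortalised cells of the study's title were not used here.

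The SCN is the hypothalamic cell group that keeps daily time in mammals and is set by light through the retina. Its neurons are mostly GABAergic, fire faster by day than by night, and carry peptides such as vasopressin, VIP and somatostatin. The molecular clock in them is a feedback loop in which CLOCK and BMAL1 act at E-box sequences to drive Per and Cry genes, whose products then oppose them, while REV-ERB and ROR proteins act at RORE sequences and DBP and its relatives at D-boxes. Transcripts that peak near midday and are lowest near midnight, or the reverse, are the ones that a contrast of CT 6 with CT 18 shows at full size. Transcripts that peak at dawn or dusk can be alike at both phases.

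The arrays of these 4 pools held 8740 probe sets (a probe set is the group of short probes that reads 1 transcript) besides controls. The SCN peptide genes were present, with Avp (vasopressin) at pool intensities of 1590 to 1993 and Sst (somatostatin) at 4786 to 6410, whereas Vip lay at 37.5 to 64.2, below the median level of the array (121). Tissue of neighbouring cells was also read: Oxt, the oxytocin gene of magnocellular neurons, lay at 2463 to 3971 and Mbp, a myelin gene, at 5696 to 8442. In such bulk tissue, fewer cells of a type and less RNA per cell cannot be told apart. One array stood apart from the other 7, the first-run array of 18 h. Its spiked hybridisation controls had a geometric mean intensity of 4968, against 1445 to 2417, its beta-actin signal was 20.9 times as high at the 3' end as at the 5' end, against 2.02 to 6.44 times, and its correlation with the mean of the other arrays of its run was 0.931, against 0.968 to 0.981. Some first-run arrays of CT 0 and CT 12, which enter only the spread of the fit, had like values. The controls were at 4801 at 12 h and at 6370 on array b of 36 h, whose correlation was 0.903. The beta-actin ratio was 17.0 at 0 h. Where leaving out the first-run 18 h array changed the sign of a gene's difference below or moved it by more than 1.5 times, the value without it is given too. This holds for the probe set named for a gene. Other probe sets are given for some genes only, and with all arrays. Counts without it are given for some lists only, and those of other lists changed as well.

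**Figure D1:**
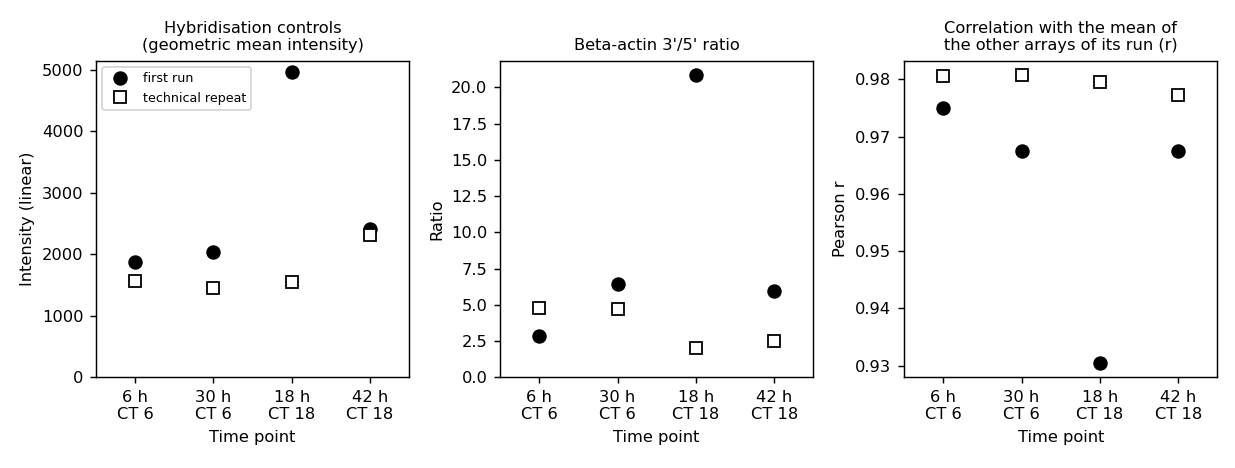
Quality measures of the 8 arrays at CT 6 and CT 18 (x axis, time point; filled circles, first run; open squares, technical repeat): geometric mean intensity of the hybridisation controls, beta-actin 3'/5' ratio, and Pearson correlation of an array with the mean of the other arrays of its run. The first-run 18 h array lies outside the range of the other 7 in each panel, at 4968, 20.9 and 0.931.

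No transcript passed the test of CT 6 against CT 18 over all probe sets. Limma, with Benjamini-Hochberg adjustment, called 0 of 8740 probe sets (0%), and 491 (5.62%) had an unadjusted p under 0.05, of which 228 (2.61%) were higher and 263 (3.01%) lower at CT 6. Both CT 6 pools lay above both CT 18 pools in 1227 probe sets (14%) and below both in 1494 (17.1%). These shares are the background for every count below. With 2 pools against 2 an exact two-sided permutation test cannot go below 0.333, so the p-values rest on the spread that limma pools over the 4 phases and over probe sets. They measure the spread between pools, part of which is array error.

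Rasl11b, which encodes a small GTPase-like protein of the Ras family, came nearest. Its intensities were 1760 and 1217 on the arrays of 6 h (first run, then technical repeat), 1544 and 1507 at 30 h, 385 and 712 at 18 h, and 463 and 519 at 42 h. Every CT 6 array was thus above every CT 18 array, in both runs and on both days. The pools stood at 1463 and 1526 at CT 6 and at 523 and 490.2 at CT 18. The log2 difference was 1.56 ± 0.13 (SE of the limma fit to all 8 pools, 2 a phase), or 2.95-fold. The limma p was 2.85e-05 and the adjusted p 0.141. A second, dimmer Rasl11b probe set went the same way, with 86.0 and 138 at CT 6 against 17.3 and 19.4 at CT 18, a difference of 2.57 ± 0.28 (SE) and an adjusted p of 0.202. Both probe sets read the same RNA. Without the first-run 18 h array the first probe set differed by 1.34 ± 0.20 (SE) with an adjusted p of 0.374. It passed the threshold in 6 of the other analyses, for example with an adjusted p of 0.0260 when only probe sets above the median level were tested. Another of the 6 took single arrays, where repeats of the same RNA counted almost as independent replicates (correlation within pools -0.0735). In 3 analyses the first-run 18 h array was set aside alone, with the other arrays of high hybridisation controls, or with a filter at the median level. The adjusted p of that probe set was 0.374 to 0.741 in these. The technical repeat alone and the fit without the 18 h pool also lacked that array and are not in this range.

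Among probe sets above the median level, the genes with the smallest p on the CT 6 side were, after Rasl11b, Prps1, Ttr, Fabp7, Tra2b, Marcks, Vps33a, Rtn1, Hprt1 and Fam210a. None passed adjustment (adjusted p 0.579 to 0.748). Prps1, an enzyme that makes the ribose precursor of nucleotides, had pool intensities of 2178 and 2030 at CT 6 and of 1082 and 1329 at CT 18, a difference of 0.81 ± 0.16. Hprt1, which salvages purines with that same precursor, had 3124 and 3045 against 2049 and 2282 (0.51 ± 0.13). Both purine genes were lower in both CT 18 pools, but without the first-run 18 h array Hprt1 differed by 0.05 ± 0.26 and Prps1 by 0.51 ± 0.16 (SE). Fabp7, which carries fatty acids in astrocytes, had 2053 and 1911 against 1209 and 1314 (0.65 ± 0.15), and within each run all CT 6 arrays were above all CT 18 arrays. Its difference was 0.71 in the first run, 0.59 in the technical repeat and 0.50 ± 0.15 without the 18 h first-run array.

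Ttr, the thyroid hormone carrier that the choroid plexus makes in quantity, showed the widest difference of the genes after Rasl11b. Its intensities were 411 and 230.3 at 6 h and 439 and 212 at 30 h (first run, then repeat), against 142 and 19.2 at 18 h and 90.4 and 124 at 42 h. The CT 6 arrays were all above the CT 18 arrays, and the pools differed by 2.04 ± 0.44 (SE, 2 pools per phase), or 4.12-fold, and by 2.77 ± 0.80 without the first-run 18 h array. A second Ttr probe set did not show this, with 137 and 156 at CT 6 and 182 and 72.3 at CT 18 (0.35 ± 0.53). The whole list of choroid plexus and ependyma markers, 15 genes on the array, had a median difference of 0.08, with both CT 6 pools above both CT 18 pools in 4 genes and below in 2, and its summed intensity was 39500 and 42210 at CT 6 and 41170 and 37370 at CT 18. Without that array the list had 1 gene above and 1 below, and its sum at 18 h was 39940. Enpp2, another gene of that epithelium, was at 2823 and 3229 against 2038 and 2485 (0.42 ± 0.21), or 0.15 ± 0.21 without it. The part of choroid plexus tissue in the Ttr difference was not tested.

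The other genes of the CT 6 side were less uniform between arrays and probe sets. Vps33a, a subunit of the machinery that tethers endosomes to lysosomes, had 183 and 264 at CT 6 and 122 and 95.1 at CT 18 (1.03 ± 0.26, SE), but a far brighter probe set of the same gene lay at 2872 and 2832 against 2877 and 2601 (0.06 ± 0.14). Marcks, a protein kinase C substrate of the membrane cytoskeleton, had 143 and 178 against 90.6 and 106 (0.70 ± 0.17), and its brightest probe set differed by 0.06 ± 0.14. Fam210a, a mitochondrial protein, differed by 0.78 ± 0.21. Tra2b, a splicing factor, and Rtn1, a reticulon of the endoplasmic reticulum of neurons, differed by 0.92 ± 0.22 and 0.48 ± 0.13. Those 2 differences came largely from the first run (1.51 and 0.82, against 0.33 and 0.14 in the technical repeat). Without the first-run 18 h array they were 0.17 ± 0.39 and 0.17 ± 0.22. Dimmer Tra2b probe sets lay between -0.15 ± 0.64 and 0.52 ± 0.48, and a dimmer Rtn1 probe set differed by -0.08 ± 0.31.

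On the CT 18 side the leading genes were Psat1, Ubac2, Bcl2l1, Hspb1, Csdc2, Grip2, Or10al7, Fkbp4, Cacnb3 and Cftr, with adjusted p of 0.657 to 0.829. Psat1, an aminotransferase of serine synthesis, had intensities of 4175 and 6474 at 6 h and 5169 and 6672 at 30 h, against 10740 and 8275 at 18 h and 8340 and 12330 at 42 h. Within each run both CT 6 arrays were below both CT 18 arrays. The pools, at 5199 and 5872 against 9428 and 10140, differed by -0.82 ± 0.19 (SE, 2 pools per phase), so that the CT 18 level was 1.77 times that of CT 6, and the difference was -0.73 ± 0.21 without the first-run 18 h array. Other Psat1 probe sets were lower at CT 6 as well but by unlike amounts, the brighter of them by -0.09 ± 0.37, with 2632 and 4326 against 2655 and 4872. Cacnb3, a beta subunit of voltage-gated calcium channels, had 215 and 209 at CT 6 and 320 and 322 at CT 18 (-0.60 ± 0.18). Its CT 6 arrays, at 196 to 237, were all below its CT 18 arrays, at 280 to 369.

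Bcl2l1, which encodes the cell death inhibitor Bcl-x, had pools of 110 and 78.3 against 214 and 226 (-1.24 ± 0.29), but the runs differed, at -2.14 in the first and -0.35 in the repeat, and other Bcl2l1 probe sets lay between -0.13 ± 0.31 and 0.68 ± 0.60. Ubac2, a membrane protein of endoplasmic reticulum quality control, had 126 and 80.7 against 295 and 289 (-1.53 ± 0.35), with 1 CT 6 array, the repeat of 6 h at 362, inside the CT 18 range. Fkbp4, an immunophilin that works with Hsp90 on steroid receptors, had 144 and 154 against 232 and 238 (-0.66 ± 0.19). Grip2, a scaffold of AMPA receptors, differed by -0.66 ± 0.17, and its brighter probe set by 0.02 ± 0.14. The chloride channel gene Cftr and the odorant receptor gene Or10al7 differed by -0.69 ± 0.21 and -0.57 ± 0.16. The cold-shock domain gene Csdc2 and the small heat shock gene Hspb1 differed by -0.89 ± 0.23 and -0.997 ± 0.26 with all arrays, and by -0.36 ± 0.36 and -0.53 ± 0.35 without the first-run 18 h array. A brighter Hspb1 probe set differed by -0.23 ± 0.15.

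**Figure D2:**
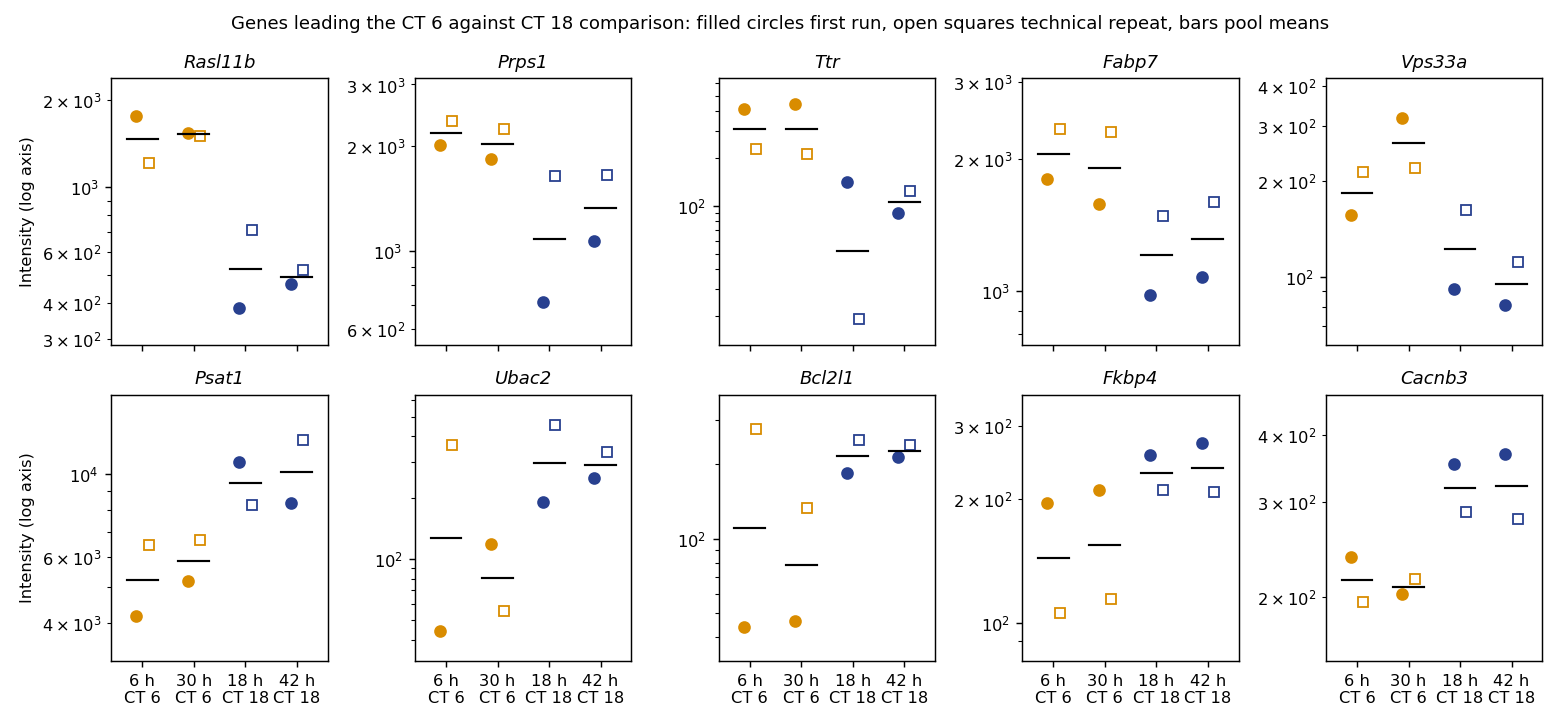
Intensity (log axis) of 10 genes on the arrays of 6 h and 30 h (CT 6, orange) and of 18 h and 42 h (CT 18, blue); filled circles are the first run, open squares the technical repeat, and bars the pool, the geometric mean of both. All CT 6 arrays lie above all CT 18 arrays for Rasl11b, Prps1 and Ttr, and all lie below for Psat1 and Cacnb3. Ubac2 and Bcl2l1 each have a CT 6 array within or above the CT 18 range.

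Of these 20 genes, 16 differed in the same direction in each of the 4 pairs of day and run, 8 on each side. Over the probe sets above the median level 5.33% were higher and 7.64% lower in all 4 pairs. All 20 kept their direction when the first-run 18 h array was left out, and 15 of them, 7 higher and 8 lower, kept an unadjusted limma p under 0.05. Of all 153 probe sets above the median level with such a p (3.5%), 148 kept the direction and 80 the p. As the genes were picked from fits that hold these arrays, neither count is independent support. In probe sets above the median level, the standard deviation of the first-run difference between 6 h and 18 h was 0.74 on the log2 scale, against 0.47 to 0.49 in the other 3 pairs of day and run, and 14.3% of these probe sets differed by more than 1, against 4.12% to 4.30%.

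The runs repeated the levels far better than the differences. Across the 4370 probe sets above the median level, the first run and the repeat of the same pool correlated at 0.91 at 6 h, 0.909 at 30 h and 0.913 at 42 h, and at 0.833 at 18 h. The difference between phases measured in the first run correlated with that of the repeat at 0.117 (Spearman's rho 0.136) on day 1 and at 0.0991 (0.122) on day 2, with the same sign in 55.3% and 54.9% of probe sets. These are correlations across probe sets, which are no independent replicates, and the runs read the same RNA.

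Both days could also be described separately, with no test since each had 1 pool per phase. A difference of more than 0.5 on the log2 scale was found in 22.5% of the probe sets above the median level between 6 h and 18 h and in 13.2% between 30 h and 42 h. Past that size on both days, 34 (0.778%) were higher at CT 6 and 42 (0.961%) lower. Besides Ttr and Rasl11b, the higher ones were led by Cga, the alpha subunit shared by the glycoprotein hormones of the pituitary. Cga had 4182 and 2359 at 6 h, 1174 and 971 at 30 h, 624 and 551 at 18 h and 455 and 411 at 42 h. The 4 CT 6 arrays were all above the 4 CT 18 arrays, with differences of 2.42 on day 1 and 1.30 on day 2. The CT 6 pools were far apart, and the mean difference was 1.86 ± 0.87 (SE, adjusted p = 0.866). The pituitary hormone list, added after Cga was seen, had a summed intensity of 4651 at 6 h, against 1995 at 30 h, 1756 at 18 h and 1475 at 42 h.

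Within that list the members did not move as one. Pomc, the precursor of melanocortins and beta-endorphin that arcuate neurons and the pituitary both make, had 467 and 192 at CT 6 and 158 and 139 at CT 18 (1.01 ± 0.41), and differed by 1.64 ± 0.52 without the first-run 18 h array. Tshb, the beta subunit of thyrotropin, had 256 at 6 h and 43.1, 88.4 and 41.5 at 30, 18 and 42 h, so that only the 6 h pool was high. Lhb, the beta subunit of luteinising hormone, went the other way, with 358 and 265 against 448 and 404 (-0.46 ± 0.18), and Gh1 and Prl, growth hormone and prolactin, lay at 101.2 to 133 and 32.2 to 52.3 in the 4 pools. The part of pituitary tissue in the Cga and Pomc values was not tested.

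The other genes among the 8 on each side with the largest differences of 1 sign on both days were the cell junction gene Jup, the glycolytic gene Pfkm, Rpl17, the desaturase gene Scd2 and Mdfic on the CT 6 side, and Alkbh7, Dnm1l, Cyb5a, Slc12a3 and Ier5 beside Ubac2, Bcl2l1 and Psat1 on the CT 18 side. Mdfic, a regulator of transcription factors, had 434 and 414 against 269 and 239 (0.74 ± 0.22), and 0.36 ± 0.36 without the first-run 18 h array. Scd2, which makes monounsaturated fatty acids, differed by 0.93 ± 0.26 in the named probe set and by 0.33 ± 0.14 in its brightest, at 11620 and 11810 against 8486 and 10180. Its other probe sets lay between -0.30 ± 0.16 and 0.22 ± 0.20. Pfkm differed by 0.88 ± 0.37 in the named probe set and by -0.07 ± 0.20 in its brightest, at 2474 and 3303 against 3075 and 2941. For Dnm1l the named and the brightest probe set differed by -1.45 ± 0.69 and -0.11 ± 0.26. In the brightest probe sets of Pfkm and Dnm1l the 18 h arrays were split. They read 3888 and 2432 for Pfkm and 109 and 397 for Dnm1l (first run, then repeat). Jup and Dnm1l had days of 1 sign and runs of unlike sign. The Jup difference was -0.58 in the first run and 2.35 in the repeat, and that of Dnm1l, a GTPase of mitochondrial fission, 0.05 and -2.95. Without the first-run 18 h array the Jup difference of 0.89 ± 0.37 was 1.54 ± 0.55, and those of Rpl17 and Ier5, at 0.79 ± 0.39 and -0.86 ± 0.33, were 0.27 ± 0.30 and -0.52 ± 0.43. Cyb5a, an electron carrier of fatty acid desaturation, differed by -1.36 ± 0.50, with the 42 h pool split between 2130 and 351. Of the 8 genes chosen for agreement of days on each side, 6 and 3 had the same direction in all 4 pairs of day and run.

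**Figure D3:**
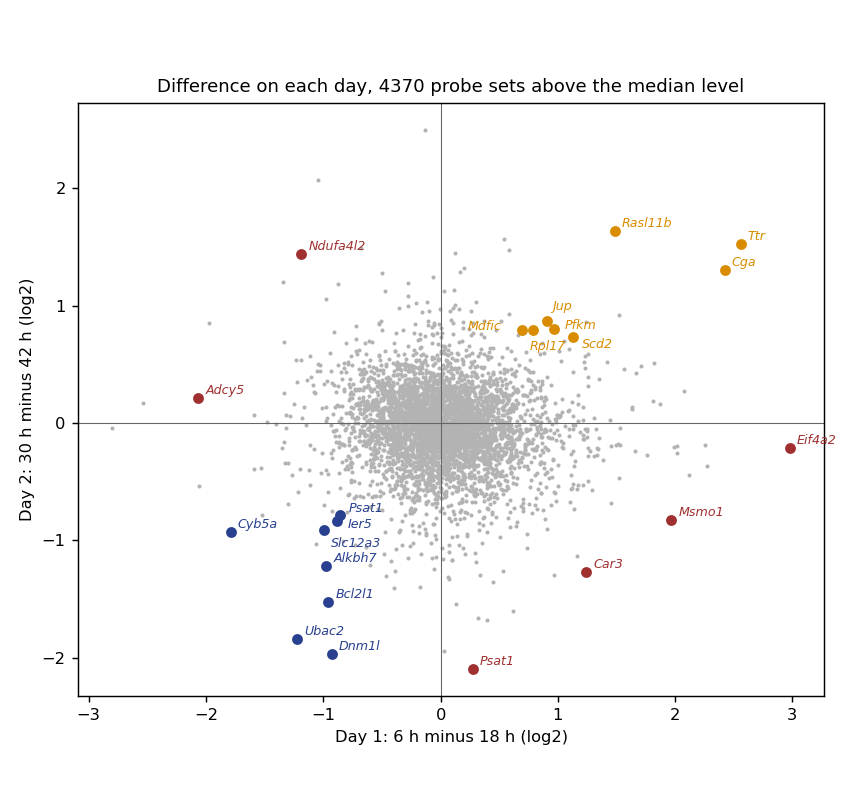
Difference between 6 h and 18 h (x axis, log2) against that between 30 h and 42 h (y axis, log2) for 4370 probe sets above the median level. Coloured points are genes with large differences of 1 sign on both days (orange, higher at CT 6; blue, lower) or of opposite sign (red); Rasl11b lies at 1.48 and 1.64 and Ttr at 2.56 and 1.53.

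The core clock genes read by the array differed little with all arrays, and many of their values turned on the first-run 18 h array. Of 12 measured, 0 had an unadjusted p under 0.05, 1 had both CT 6 pools above both CT 18 pools and 1 below, and the median difference was -0.14, against -0.02 over the 4736 genes on the array (by each gene's brightest probe set, 2.26% were higher and 2.58% lower with such a p, and 14.4% had both CT 6 pools above and 17.3% both below). When the first-run 18 h array was left out, 1 clock gene was higher and 1 lower with such a p, 2 had both CT 6 pools above and 4 both below, and the median was -0.11. Bmal1, the activator, had 234 and 168 at CT 6 and 210 and 240 at CT 18 (-0.18 ± 0.29), and a dimmer probe set differed by 1.41 ± 0.59. Dbp, an output of the clock that binds D-boxes, had 828 and 899 against 841 and 779 (0.09 ± 0.14). Without that array Dbp differed by 0.48 ± 0.24, with both CT 6 pools above both CT 18 pools. The repressor Nr1d1 (REV-ERB alpha) had 289 and 113 against 204 and 222 (-0.23 ± 0.43), and its relative Nr1d2 887 and 882 against 638 and 970 (0.17 ± 0.22). Another Nr1d1 probe set above the median level differed the other way, with 226 and 130 against 178 and 117 (0.25 ± 0.33). Without that array Nr1d1, by its brightest probe set, and Nr1d2 differed by -0.46 ± 0.44 and -0.10 ± 0.12. In the brightest probe sets both days were opposite in sign for Bmal1 and Nr1d1 with and without that array, and for Dbp and Nr1d2 only with it.

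Per2, a repressor of the loop, had 236 and 230 at CT 6 and 150 and 317 at CT 18, a difference of 0.09 ± 0.35. The low 18 h value was that of the first-run array, at 68.4, while its repeat read 329. Without that array Per2 differed by -0.47 ± 0.14 and both CT 6 pools lay below both CT 18 pools. The limma fit gave it an adjusted p of 0.604. Rorb, an activator at RORE sequences, lay at 12.1 to 25.3, at or near the floor of 12.1, and was the clock gene that was higher at CT 6 with such a p without that array (0.90 ± 0.33). Bhlhe41, a repressor at E-boxes, was the brightest of the list, with 4207 and 4161 against 2652 and 4327 (0.30 ± 0.25), and its first-run 18 h array read 1624 against 3998 to 4682 on the other 3 CT 18 arrays. Without it Bhlhe41 differed by -0.05 ± 0.14. The others were the repressor Bhlhe40 (-0.32 ± 0.21, and -0.11 ± 0.25 without it), Timeless (-0.37 ± 0.32 and 0.18 ± 0.25), the kinase gene Csnk1d (-0.16 ± 0.20 and 0.07 ± 0.21), and the relatives of Dbp, Tef (-0.12 ± 0.20 and -0.26 ± 0.25) and Hlf (-0.16 ± 0.34 and -0.38 ± 0.33). Dimmer Hlf probe sets differed by 0.15 ± 0.41 and 0.32 ± 0.21 with all arrays.

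The SCN's own peptides differed little. Of 14 peptide genes, 0 had an unadjusted p under 0.05, 3 had both CT 6 pools above and 2 both below, and the median difference was -0.02, or 0.19 without the first-run 18 h array, with 3 above and 4 below and 1 gene, Vip, lower with such a p. Penk, the enkephalin precursor, had 1482 and 1774 at CT 6 and 1118 and 1218 at CT 18 (0.47 ± 0.20), was higher in all 4 pairs of day and run, and differed by 0.29 ± 0.21 without that array. Gal, the galanin gene, had 715 and 709 against 1027 and 824 (-0.37 ± 0.17). Avp had 1590 and 1894 against 1993 and 1826 (-0.14 ± 0.18), and 0.33 ± 0.30 without that array. Vip, at 47.9 and 37.5 against 37.8 and 64.2, differed by -0.22 ± 0.33, and Sst by 0.08 ± 0.30. Without that array they differed by -0.78 ± 0.27 and 0.24 ± 0.29. Gad1, the enzyme that makes GABA, had 10970 and 9916 against 7952 and 9034 (0.30 ± 0.20), but -0.03 ± 0.24 without that array.

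Among 23 receptors for SCN inputs and peptides, 1 had an unadjusted p under 0.05. It was Avpr1a, the vasopressin receptor through which SCN neurons act on each other, with 27.6 and 17.8 at CT 6 and 84.6 and 36.9 at CT 18 (-1.34 ± 0.48), all under the median level. The VIP receptor Vipr2, at 100.3 and 99.5 against 129 and 143, and the kappa opioid receptor Oprk1, at 208 and 145 against 230.3 and 262, stood lower at CT 6 in both pools too (-0.44 ± 0.31 and -0.50 ± 0.23), and Oprk1 differed by -0.76 ± 0.25 without the first-run 18 h array. In the whole list 12 of 23 were higher at CT 6, or 10 of 23 without that array, when 1 was higher and 2 lower with an unadjusted p under 0.05.

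Immediate early genes, which neuronal firing induces within minutes, were split. Of 25 measured, 2 were higher and 2 lower at CT 6 with an unadjusted p under 0.05, and the median was 0.05, or -0.13 without the first-run 18 h array, when 0 were higher and 1 lower with such a p. Egr1, a zinc finger transcription factor and the brightest of the 4, had 6261 and 4822 at CT 6 and 3740 and 3534 at CT 18 (0.60 ± 0.22), in the same direction in all 4 pairs of day and run, and 0.53 ± 0.22 without the first-run 18 h array. Its dimmer probe sets differed by 0.28 ± 0.31, 0.10 ± 0.23 and -0.15 ± 0.20. None of these had the same direction in all 4 pairs. Ier3 had 263 and 240.3 against 156 and 211 (0.47 ± 0.19), and 0.80 ± 0.35 without that array. Egr3, a relative of Egr1, and Fosl2, a Fos family member, lay under the median level and differed the other way, by -0.78 ± 0.27 and -0.67 ± 0.25.

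No channel gene passed adjustment. Of 23 calcium, sodium and HCN channel genes, 0 were higher and 3 lower at CT 6 with an unadjusted p under 0.05. Over all genes the shares were 2.26% higher and 2.58% lower. The lower ones besides Cacnb3 were Cacna1d, the pore of an L-type calcium channel, with 83.5 and 101.4 against 129 and 132 (-0.50 ± 0.15), and Scn2b, a sodium channel beta subunit near the floor (-1.34 ± 0.43). The Cacna1d difference was 0.02 in the first run and -1.03 in the repeat, that of Scn2b was -2.68 and -0.01, and that of Cacnb3 was -0.72 and -0.47. Scn2b differed by -0.57 ± 0.67 without the first-run 18 h array. A dimmer Cacna1d probe set differed the other way, by 1.07 ± 0.21. The list's median was -0.06 with all arrays, when both CT 6 pools lay below both CT 18 pools in 5 of 23 and above in 3. Without the first-run 18 h array the median was -0.24, with 9 of 23 below (39.1%, against 17.8% of all genes) and 2 above. Among 14 sodium and calcium pumps, Atp1b2, a sodium pump subunit of glia, had 124 and 214 against 298 and 291 (-0.85 ± 0.34), while a dimmer probe set differed by 0.56 ± 0.17. Of 32 potassium channel genes, 8 had both CT 6 pools below and 2 above, with 0 under the unadjusted threshold, and their median was -0.08. Without that array 4 were below (12.5%, against 17.76% of all genes) and 2 above, and the median was 0.04. Syt1, the calcium sensor of vesicle release, read 12.1 and 24.3 against 64.5 and 55.0 (-1.80 ± 0.39), far under the median level.

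Ras family genes, the list that holds Rasl11b, were mostly higher at CT 6. Of 18, 15 (83.33%) were higher, against 46.1% of all genes, 4 had both CT 6 pools above both CT 18 pools and 0 below, and the median was 0.10. The sizes were small besides Rasl11b. Nras, one of the classical Ras proteins, had 278 and 360.4 against 194 and 244 (0.54 ± 0.20), and another Nras probe set differed by -0.59 ± 0.46. Without the first-run 18 h array 11 of the 18 were higher, with a median of 0.12, 3 had both CT 6 pools above and 1 both below, and Nras differed by 0.36 ± 0.18.

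Heat shock and protein folding genes were mostly lower at CT 6, by their median on both days and in both runs. Of 31 genes, 21 were lower at CT 6, 10 had both CT 6 pools below both CT 18 pools and 4 above, and 2 were lower with an unadjusted p under 0.05. The median difference was -0.16, with -0.19 on day 1, -0.16 on day 2, -0.13 in the first run and -0.14 in the repeat. Hsf1, the transcription factor that induces heat shock genes, had 702 and 714 at CT 6 and 938 and 948 at CT 18 (-0.41 ± 0.15), and Hsp90ab1, the constitutive Hsp90, had 12540 and 12250 against 16200 and 14950 (-0.33 ± 0.14). For both, the CT 6 pools were the 2 lowest and the CT 18 pools the 2 highest of all 8 pools of the study with all arrays, but not without the first-run 18 h array. Fkbp4, the Hsp90 partner given above, Dnajb1, an Hsp40, Pdia4, a disulfide isomerase, and Cryab, a small heat shock protein of glia, differed by -0.66 ± 0.19, -0.41 ± 0.19, -0.52 ± 0.23 and -0.48 ± 0.26 (Cryab -0.31 ± 0.25 without that array).

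The sizes in this list were modest and not all members shared the direction. Hspa9, the mitochondrial Hsp70, had 1127 and 1281 against 471 and 978 (0.82 ± 0.35), with -0.13 in the first run and 1.78 in the repeat. Without the first-run 18 h array the list's median was -0.20, and 14 of 31 genes (45.2%) had both CT 6 pools below both CT 18 pools and 2 above, against 17.8% and 14.8% of all genes in the same fit, while 1 of 31 was lower with an unadjusted p under 0.05. Other lists came near that share below in the same fit. It was 42.9% for sodium and calcium pumps, 39.1% for calcium, sodium and HCN channels and 37.5% for pan-neuronal markers. Without that array Hsf1 differed by -0.36 ± 0.15 and Hsp90ab1 by -0.20 ± 0.14. The genes share pools and arrays, and no test of the list was made.

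**Figure D4:**
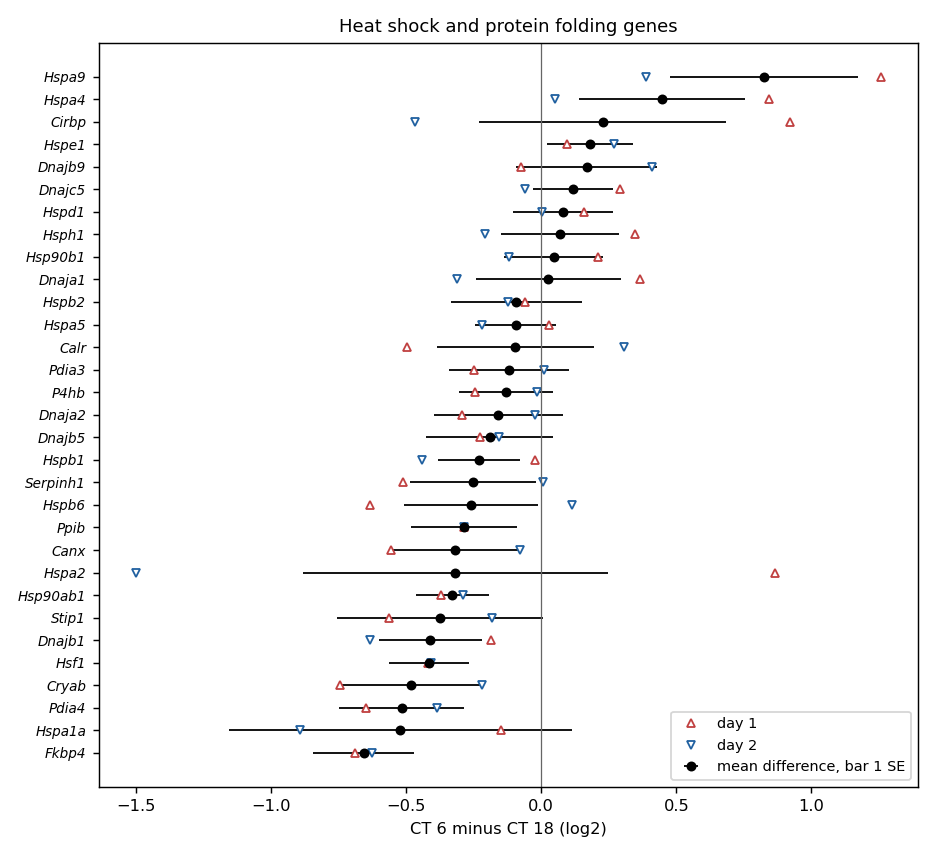
Difference between CT 6 and CT 18 (x axis, log2) of the 31 heat shock and protein folding genes by their brightest probe set, with black points and bars for the mean of both days ± 1 SE and triangles for each day. Most points lie left of 0, led by Fkbp4 at -0.66, while Hspa9 lies at 0.82.

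Among the metabolic lists, the counts depended on the first-run 18 h array. Antioxidant enzymes had 7 of 28 genes higher at CT 6 and a median of -0.13 with all arrays, but 14 of 28 and -0.00061 without that array. Within the list Hmox1, which degrades haem, was higher (271 and 282 against 162 and 218, 0.56 ± 0.22, and 0.34 ± 0.18 without that array). In the respiratory chain, 1 of 23 genes, the ATP synthase subunit Atp5pf, had an unadjusted p under 0.05, at 5977 and 5216 against 3695 and 4188 (0.51 ± 0.14), and 0.17 ± 0.20 without that array. Srebf1, the regulator of lipid synthesis, was lower at CT 6, at 31.0 and 39.4 against 69.3 and 127 (-1.42 ± 0.45), as was Mvk, mevalonate kinase (-0.99 ± 0.35, and -0.33 ± 0.23 without that array). The 37 cytosolic ribosomal protein genes had medians of -0.28 on day 1 and 0.13 on day 2, and 28 of 37 were higher at CT 6 without that array, against 14 of 37 with it.

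Nr3c2, the mineralocorticoid receptor, was the 1 of 17 nuclear hormone receptors with an unadjusted p under 0.05, with 248.5 and 193 at CT 6 and 164 and 141 at CT 18 (0.53 ± 0.20). Of the peptides of neighbouring hypothalamic neurons, Pmch, which encodes melanin-concentrating hormone in lateral hypothalamic neurons, had 329 and 197 against 439 and 445 (-0.80 ± 0.25), while Trh, the thyrotropin-releasing hormone gene, had 510 and 620 against 729 and 697 (-0.34 ± 0.15). A dimmer Trh probe set differed by 0.36 ± 0.38. Both CT 6 pools were lower than both CT 18 pools for 4 of the 11 genes of that list, and for 2 (18.2%, against 17.8% of all genes) without the first-run 18 h array. The part of tissue borders in these values was not tested. The median differences of the markers of other cells were 0.01 for astrocytes, 0.04 for oligodendrocytes, 0.03 for microglia, 0.05 for vessels and blood, and -0.06 for neurons in general. Without that array they were 0.11, -0.01, -0.03, 0.14 and -0.19 in the same order.

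**Figure D5:**
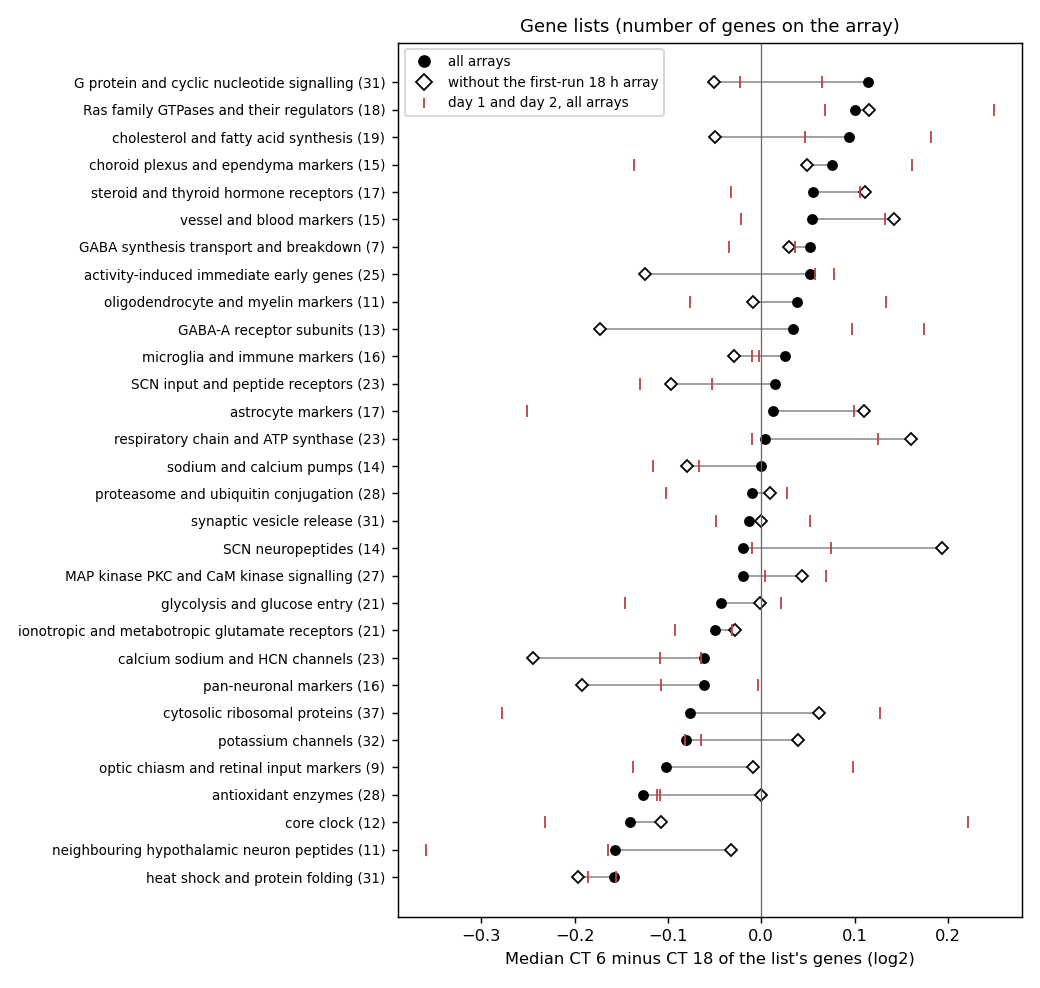
Median difference between CT 6 and CT 18 (x axis, log2) of the genes of 30 lists, with all arrays (black circles), without the first-run 18 h array (open diamonds) and on each day (red ticks). Heat shock and protein folding stays left of 0 in all of these, at -0.16 with all arrays and -0.20 without that array. So do other lists, among them calcium, sodium and HCN channels (-0.06 and -0.24) and pan-neuronal markers (-0.06 and -0.19). Antioxidant enzymes move to -0.00061 without that array.

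Seen against all 4 phases, few probe sets had midday and midnight as their extremes. Of the 4370 probe sets above the median level, 9 had the CT 6 pools as the 2 highest and the CT 18 pools as the 2 lowest of the 8 pools, and 12 the reverse. The counts without the first-run 18 h array were 5, all of them among the 9, and 12, of which 4 were among the first 12. Over all 8740 probe sets, with all arrays, the counts were 21 and 27. No count for pools in random order was made, so these counts do not tell such a pattern from chance. Rasl11b, Vps33a and Mdfic were among the 9, and of these Rasl11b alone was among the 5. The mean intensity of Rasl11b was 874 at CT 0, 1494 at CT 6, 1133 at CT 12 and 506 at CT 18. Psat1 was among the 12 with all arrays but not without that array, and stood at 7910, 5525, 6770 and 9778 in the same order. The other leading genes mostly stood out at 1 phase: Ttr was at 128 and 133 at CT 0 and CT 12 against 306 at CT 6, and Hspb1 at 372 and 326 against 650 at CT 18.

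The start regions of the 3 of the 20 leading genes that were extreme at both phases with all arrays, Rasl11b being the 1 that was so without the first-run 18 h array too, are printed because a contrast of phases invites the question of clock motifs there. They are RefSeq promoter windows of build GRCr8, 250 bases before to 50 after the annotated start, on the gene's own strand: Rasl11b at chr14:34373201-34373500 (minus strand), Vps33a at chr12:38685274-38685573 (plus strand) and Psat1 at chr1:222645359-222645658 (minus strand). Capitals mark matches, on either strand, to the E-box CACGTG, the cyclic AMP element TGACGTCA, the D-box TTATGTAA or the RORE core AGGTCA.
Rasl11b: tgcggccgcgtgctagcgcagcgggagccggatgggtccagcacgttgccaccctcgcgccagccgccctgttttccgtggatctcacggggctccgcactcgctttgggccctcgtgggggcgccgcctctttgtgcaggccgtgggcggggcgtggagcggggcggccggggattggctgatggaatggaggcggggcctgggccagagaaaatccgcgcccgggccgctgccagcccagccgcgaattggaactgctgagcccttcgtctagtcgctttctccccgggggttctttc
Vps33a: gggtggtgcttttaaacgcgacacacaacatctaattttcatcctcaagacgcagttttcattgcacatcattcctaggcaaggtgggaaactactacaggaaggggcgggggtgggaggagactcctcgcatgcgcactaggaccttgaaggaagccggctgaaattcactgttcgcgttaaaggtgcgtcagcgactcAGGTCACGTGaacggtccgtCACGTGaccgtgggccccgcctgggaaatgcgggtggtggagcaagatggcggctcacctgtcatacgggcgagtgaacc
Psat1: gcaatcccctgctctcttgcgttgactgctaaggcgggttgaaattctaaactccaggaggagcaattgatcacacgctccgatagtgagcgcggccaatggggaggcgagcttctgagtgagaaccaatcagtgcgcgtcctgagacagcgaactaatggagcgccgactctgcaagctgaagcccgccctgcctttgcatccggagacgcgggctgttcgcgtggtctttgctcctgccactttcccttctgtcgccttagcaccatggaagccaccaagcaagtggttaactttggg
The Vps33a window holds 2 E-boxes, the first of which overlaps a RORE core. The windows of Rasl11b and Psat1 hold none of the 4 motifs.

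Over the named genes with a window, the E-box was found in 1 of 15 on the CT 6 side (Vps33a), 0 of 14 on the CT 18 side and 3 of 10 clock genes (Bhlhe40, Bhlhe41 and Tef), against 6.42% of all 33469 windows. The RORE core was found in 3 of 15 (Cga, Fabp7 and Vps33a), in 1 of 14 (Alkbh7) and in 2 of 10 (Bmal1 and Nr1d2), against 16.2%. The D-box was found in Per2 alone among these genes (0.893% of all windows) and the cyclic AMP element in none (1.83%). A match is a string of letters in a window, and its absence says nothing of binding elsewhere.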

How the data were processed

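The 8 arrays at CT 6 and CT 18 were read from the table of 18 arrays. Per the deposited table, its values are linear intensities, 1 per probe set and array, with a mean trimmed by 2% at each end of 500.7 to 500.8 on every array. How the authors summarised and scaled probes is not given in the sources used here. Here, intensities below the 10th percentile (12.1) were set to that floor and transformed to log2. The 59 control probe sets of 8799 were left out. Arrays a and b of the 24 h and 36 h points, assumed to read 1 pool, were averaged, then both runs, which the labels call technical replicates. The difference of CT 6 and CT 18 was tested in R 4.3.3 by lmFit and eBayes of limma 3.58.1 (residual degrees of freedom 4, prior 1.70) in a fit of 4 phase means to all 8 pools, Benjamini-Hochberg threshold 0.05. Its script was tested on simulated data. Levels given for a pool are geometric means, and lists use each gene's brightest probe set. The ± is limma's SE of the log2 difference, from the fit to all 8 pools with the spread pooled over probe sets.

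Symbols came from the platform annotation: 7006 probe sets had 1 symbol, 308 several and 1426 none, and 6985 were matched to current RefSeq genes. Named were the 10 genes per direction with the smallest p above the median level (intensity 121), up to 8 per direction with the largest smaller-of-both-days difference, up to 6 with days opposite in both runs, every measured clock gene and up to 3 genes per list by p. Further members of the lists (such as Avp, Vip, Tshb and Hspa9) and the pituitary list were chosen after their values were seen. The comparison, the 30 lists and the named genes were chosen with earlier results of these data known. Array numbers limit the precision: 2 arrays read each of these pools. Alternatives were other floors, filters, scalings, runs, fits and left-out arrays or pools.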

Additional observations from a re-analysis of the deposited data

Results flagged for a closer look

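The first-run 18 h array was the outlier of the 8 arrays in 3 measures of quality, each by Dixon's test. Its hybridisation controls (4968, against 1445 to 2417 on the others) left a gap of 0.724 of the whole range, its beta-actin 3'/5' ratio (20.89, against 2.018 to 6.442) a gap of 0.766, and its correlation with the rest of its run (0.9305, against 0.9675 to 0.9807) a gap of 0.736. The GAPDH 3'/5' ratio, the share of probe sets at the floor and the median intensity were tested in the same way and flagged no array. The GAPDH ratio of the first-run 18 h array, at 35.2, was still the highest of the 8. Chance flags about 1 in 20 groups for each measure, and the 3 flagged measures come from 1 array.

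In 6 probe sets the days were opposite in sign while both runs had the sign of their day, and these had the widest gaps between days of the 611 such probe sets with 1 gene symbol above the median level. That difference between days was not tested. The values are 6 h minus 18 h and then 30 h minus 42 h on the log2 scale. Eif4a2, a translation initiation factor, had 2.98 and -0.21, with 1 array, the first run of 18 h, at 9.80 against 573 to 1756 on the others, and its brighter probe set had 1.26 and -0.21. Msmo1, an enzyme of cholesterol synthesis, had 1.97 and -0.82, with the same array at 10.5, while its far brighter probe set differed by 0.77 and 0.07. Car3, a carbonic anhydrase, had 1.24 and -1.27, with the first-run arrays of 30 h and 18 h at 35.6 and 38.6 and the other 6 at 194 to 225. Ndufa4l2, a mitochondrial protein, had -1.19 and 1.44, with 95.8 and 74.3 at 6 h, 258 and 159 at 30 h, 204 and 182 at 18 h and 82.7 and 67.3 at 42 h. Adcy5, an adenylyl cyclase, had -2.07 and 0.21, with the 6 h arrays at 54.1 and 53.0 and the other 6 at 148 to 299. The dim Psat1 probe set had 0.27 and -2.09, with 90.9 and 179 at 6 h, 28.0 and 111 at 30 h, 86.8 and 128 at 18 h and 313 and 181 at 42 h.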

How the results depend on the processing

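No probe set passed adjustment with all arrays and the settings of the report. The count was 1 with only levels above the median (adjusted p of Rasl11b 0.026) or above the 75th percentile (0.00155), a floor at the 25th percentile (0.0256), a pseudocount of 50 (0.0367) or limma's trend and robust options (0.0178). It was 2, both of them Rasl11b probe sets, with single arrays and the pool as a random block (correlation -0.0735). At that correlation the repeats of a pool count almost as independent replicates, though they read the same RNA. The count was 0 in every other analysis, where the adjusted p of Rasl11b was 0.1 to 0.88. The number with an unadjusted limma p under 0.05, 491 in the report, was 214 in a fit of levels above the median, 129 above the 75th percentile and 278 above the median without the first-run 18 h array. Fewer probe sets were tested in these 3. Leaving out a pool gave 424 to 773, the highest without the 42 h pool. With the day as a replicate block, 0 passed adjustment and 505 the unadjusted threshold. Pools of 1 day correlated in their deviations from the phase means, across probe sets, at -0.134 to 0.103. With 1 pool per phase and day, these values cannot settle whether the pools of a day share an effect. The cause of the other changes was not tested.

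Some of the named differences (CT 6 minus CT 18, log2) changed sign. In the first run alone these were Jup -0.58, Dnm1l 0.0522, Dbp -0.39, Tef 0.0398, Hlf 0.50, Cacna1d 0.0209, Hspa9 -0.13 and Vip 0.63. In the technical repeat alone they were Ndufa4l2 -0.0236, Bhlhe40 0.0484, Timeless 0.16, Csnk1d 0.13, Per2 -0.0731 and Flt1 -0.17. Without the first-run 18 h array, also when other high-control arrays or low levels were left out, they were Eif4a2 -0.32, Msmo1 -0.48, Bhlhe41 -0.0492, Timeless 0.18, Nr1d2 -0.10, Csnk1d 0.0688, Per2 -0.47, Ugt8 -0.17, Thy1 0.0264, Gad1 -0.0324 and Avp 0.33. Car3 was 0.000542 with the pseudocount, 0.00212 with quantile normalization and 0.0418 with median scaling. When each pool in turn was left out, differences that changed sign ranged as follows: Bhlhe41 -0.0483 to 0.66, Bmal1 -0.42 to 0.0588, Car3 -0.65 to 0.63, Csnk1d -0.42 to 0.10, Eif4a2 -0.018 to 2.78, Hlf -0.45 to 0.13, Msmo1 -0.57 to 1.71, Ndufa4l2 -0.56 to 0.81, Nr1d1 -0.91 to 0.44, Nr1d2 -0.13 to 0.47, Per2 -0.45 to 0.63, Sst -0.11 to 0.28, Tef -0.30 to 0.0503, Timeless -0.75 to 0.00958, Tshb -0.49 to 2.08 and Vip -0.60 to 0.16.

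Only 2 arrays read each of these pools, and levels at the floor of 12.1 have no order. The spread between rats is not in these data.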
